A study of Mus musculus with 36 samples.

Results

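The comparison set the peri-ductal stroma of ERα(−/−) fetuses exposed to bisphenol A (BPA) against that of ERα(−/−) fetuses exposed to vehicle. Its members are the stroma arrays whose labels give the estrogen receptor alpha knockout genotype and either of these exposures, which are 6 of the 36 arrays of the series, 3 after BPA against 3 after vehicle. Dams carried pumps from embryonic day E8 on, which released BPA at 250 ng per kg of body weight per day, or the dimethylsulfoxide vehicle alone, until their fetuses were taken on E19. All fetuses were females of C57BL/6 background from matings of ERα(+/−) parents, and the knockout allele was carried in every cell, so that the stroma, the epithelium and all other tissues of the fetus lacked the receptor. For each pup the fourth inguinal mammary gland of 1 side was sectioned, and the band of stroma next to the ducts was cut out by laser, so that 1 array holds the amplified RNA of the stroma of 1 gland. The methods give 3 litters for each exposure and genotype. Further groups of 3 stroma arrays were used for comparison, namely ERα(−/−) glands after 10 ng per kg per day of ethinylestradiol (EE2), a synthetic steroid estrogen, and ERα(+/+) glands after BPA and after vehicle. The 3 stroma arrays of ERα(+/+) glands after the same dose of EE2 were not compared, but they entered the shared fit. No probe set passed the test in the 3 comparisons below, which are BPA against vehicle, the difference of that effect between the genotypes, and BPA against EE2, so every difference below is given as measured and as not passing.

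BPA is an industrial phenol that binds estrogen receptors weakly, and ERα, a nuclear receptor that switches genes on or off when it holds an estrogen, is the receptor through which most effects of estrogens on the breast are known to run. In the fetal mammary gland a small epithelial tree grows into a stroma made of a dense layer of fibroblasts around the ducts and a fat pad precursor in which adipocytes are maturing. Signals from that stroma, among them matrix proteins and growth factors, are known to direct how the ducts grow. Other known partners of BPA are the second estrogen receptor ERβ, the membrane receptor GPER (GPR30) and the estrogen-related receptors. In peri-ductal stroma the study did not detect transcripts of ERβ or of the estrogen-related receptor Esrrg. It detected those of GPER in ERα(+/+) but not in ERα(−/−) stroma.

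The promoters of 3 genes are printed here because these genes recur in the results. Hcar1 and Plin4 are the adipocyte markers with the smallest p for higher signals after BPA, and Ier3 is an immediate early gene among the lower ones. Each line gives the 250 bases before the gene's start, 5′ to 3′ on the gene's strand, from RefSeq on build GRCm38.p6, at chr5:123880004-123880253 on the minus strand for Hcar1, chr17:56109783-56110032 on the minus strand for Plin4 and chr17:35821463-35821712 on the plus strand for Ier3. Capitals mark the CCAAT box (CCAAT, or ATTGG on the other strand) and the GC box (GGGCGG), promoter elements bound by general transcription factors.
Hcar1: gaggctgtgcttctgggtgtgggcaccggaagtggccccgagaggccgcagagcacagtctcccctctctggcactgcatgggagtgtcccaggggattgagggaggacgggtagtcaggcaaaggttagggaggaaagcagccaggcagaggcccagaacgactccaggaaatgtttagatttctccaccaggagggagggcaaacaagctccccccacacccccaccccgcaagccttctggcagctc
Plin4: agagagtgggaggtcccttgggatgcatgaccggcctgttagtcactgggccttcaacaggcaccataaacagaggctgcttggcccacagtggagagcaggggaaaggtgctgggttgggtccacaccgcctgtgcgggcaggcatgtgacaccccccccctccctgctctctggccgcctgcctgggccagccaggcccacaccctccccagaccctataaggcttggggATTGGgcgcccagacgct
Ier3: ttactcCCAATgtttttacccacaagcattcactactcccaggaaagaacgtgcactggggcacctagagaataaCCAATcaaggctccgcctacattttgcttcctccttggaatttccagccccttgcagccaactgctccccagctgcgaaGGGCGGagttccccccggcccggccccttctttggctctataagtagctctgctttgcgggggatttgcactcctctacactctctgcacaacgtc
Both strands were searched for 5 motifs, which do not overlap in these windows. The full estrogen response element, GGTCA and TGACC spaced by 3 bases, was in none of the 3 and in 0.0639% of the 32851 promoter entries of the same length. Its core AGGTCA, which many nuclear receptors share, was also in none of the 3 and in 14% of all entries, and its direct repeat with 1 base between the copies, to which PPARγ binds with its partner, was in none of the 3 and in 0.0335%. A CCAAT box was found once in Plin4 and at 2 places in Ier3, against 33.8% of all entries with at least 1. A GC box was found only in Ier3 of the 3 genes, and 32.7% of all entries held one.

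The targeted gene was looked at first. At its brightest probe set, Esr1, which encodes ERα, had signals of 13.9, 49.9 and 81.8 after BPA against 26.3, 34.6 and 37.6 after vehicle in ERα(−/−) stroma. In ERα(+/+) stroma it had 114.5, 33.4 and 182.5 after BPA against 50.4, 201.3 and 396.7 after vehicle. A signal is the deposited linear intensity of a probe set, and values of different genes cannot be ranked against each other. The levels of the genotypes overlapped, and where these probe sets lie relative to the deleted part of the gene is not given in the sources used here, so they may not check the knockout.

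The BPA arrays were brighter as whole arrays than the vehicle arrays. The median signal was 32.7, 41.5 and 42.0 after BPA against 38.3, 23.6 and 21.3 after vehicle, and the mean log2 medians differed by 0.522 (exact permutation test, two-sided, p = 0.2, where 3 arrays against 3 cannot go below 0.1). Vehicle replicate 1 lay among the BPA arrays, while vehicle replicates 2 and 3 were dimmer than all the others. The ratio of 3′ over 5′ signal for Gapdh control probes, which rises as RNA is degraded or copied short, was 9.91, 9.49 and 9.24 after BPA against 12.8, 14 and 11.8 after vehicle (9.55 ± 0.339 and 12.9 ± 1.1, SD, n = 3, exact permutation test, two-sided, p = 0.1). Its ranges did not overlap, whereas those of the β-actin ratio did (0.984 ± 0.0946 after BPA against 1.01 ± 0.156 after vehicle, SD, n = 3, exact permutation test, p = 0.8). The part of array brightness and of RNA quality in the results was not tested. Changes are on the deposited scale, and the value marked quantile is the same log2 change after quantile normalization, which gives every array the same distribution of signals.

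**Figure D1:**
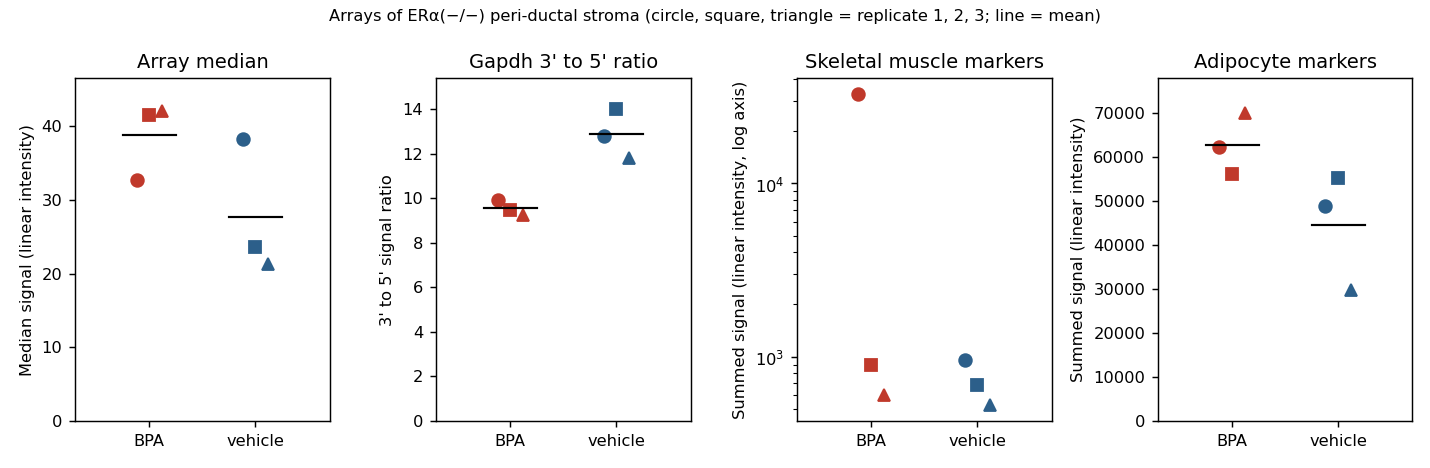
Array median signal, Gapdh 3′ to 5′ signal ratio and summed signals of skeletal muscle markers (log axis) and adipocyte markers, all in linear intensity but for the ratio, on each of the 6 ERα(−/−) stroma arrays, with BPA left and vehicle right and circles, squares and triangles for replicates 1, 2 and 3 and lines for the means, except for muscle. Skeletal muscle markers summed to 32871.6 on BPA replicate 1 and to at most 950.3 on the others, and adipocyte markers to 29668.6 on vehicle replicate 3, the lowest of the 6.

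Skeletal muscle signal was high on 1 of the 6 arrays. The 28 skeletal muscle markers summed to 32871.6, 891.2 and 597.3 after BPA and to 950.3, 686.1 and 522.8 after vehicle, and 23 of the 28 were highest on BPA replicate 1. Myh3, the embryonic myosin heavy chain, had signals of 6682.2, 32.9 and 38.5 after BPA against 81.5, 67.3 and 45.5 after vehicle. The median log2 change of the list was 1.65 with that array and 0.03 without it. Vehicle replicate 3 carried the most epithelial signal. The 27 measured epithelium markers summed to 2015.5, 3672.7 and 1741.8 after BPA and to 1187.1, 1362.3 and 9868.4 after vehicle, with Epcam, an adhesion protein of epithelia, at 182.3, 1006.8 and 158 after BPA against 220.9, 213.5 and 2423 after vehicle. The labels call the tissue stroma, and fibroblast genes were bright on all 6 arrays. Col1a1, the main fibrillar collagen of connective tissue, had signals of 11628, 12639 and 10917 after BPA against 11476, 9115.4 and 11971 after vehicle.

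Across the array, more probe sets were higher than lower after BPA on the deposited scale. At an unadjusted p under 0.05 in limma, 1628 of 45101 probe sets (3.61%) were higher and 463 (1.03%) lower, and none passed after Benjamini-Hochberg adjustment, where the smallest adjusted p was 0.985. The methods' t-test with a change of at least 2-fold gave 1104 higher and 263 lower, and none after the same adjustment. The median log2 change of all probe sets was 0.39, and 67.1% of them lay above 0. After quantile normalization the median was −0.02 and the split became 1092 higher (2.42%) and 1145 lower (2.54%), so the surplus of higher probe sets was seen on the deposited scale and not after quantile normalization. It also depended on single arrays, with 3157 higher without vehicle replicate 1 and 1081 without vehicle replicate 3. Bright probe sets had smaller changes than those of middle brightness. The median log2 change was 0.05 among the 9184 probe sets with a mean signal under 10, 0.60 among the 5961 between 50 and 100, and 0.22 among the 2190 at 1000 or more. Of the 463 lower probe sets, 255 were in the dimmest of these classes. The p-values measure the spread between glands, since each array is 1 gland, and litter mates in different groups cannot be told from the labels.

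Counted once per gene at its brightest probe set, 545 of 18194 genes (3%) were higher and 172 (0.945%) lower at an unadjusted p under 0.05. The 3 BPA arrays lay above the 3 vehicle arrays without overlap for 1692 genes (9.3%) and below them for 417 (2.29%). On both scales the groups did not overlap for 808 genes (4.44%) higher and 385 (2.12%) lower after BPA, and 543 and 119 of these had a mean signal of at least 100 in their higher group. The 12 with the smallest p in each direction follow. They were selected for exactly this separation, so it is no further evidence, and all had an adjusted p of 0.985 in limma.

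Among the 12 genes higher after BPA, Pde1b, a phosphodiesterase that breaks down cyclic nucleotides when calmodulin is active, had signals of 52.1, 262.7 and 139.3 after BPA against 6.5, 15.7 and 31.5 after vehicle (log2 change 3.07, SE 0.84, quantile 2.70, unadjusted p = 0.00216 in limma). Each BPA array lay above each vehicle array, and the change was 2.70 after quantile normalization. Dnaaf1, an assembly factor for the dynein arms of cilia, had 338.3, 271.1 and 126.8 after BPA against 50.9, 38.4 and 62.6 after vehicle (2.19, SE 0.63, or 1.76 after quantile normalization). Lingo1, a leucine-rich repeat protein of the neuronal membrane, had 245.1, 222.9 and 135.3 after BPA against 69.7, 14.8 and 54.9 after vehicle (2.34, SE 0.68, quantile 1.94), but only 1 of its 2 probe sets lay above 0. Atxn7l1, related to the ataxin 7 gene, had 89.3, 139.6 and 97.8 after BPA against 23.8, 7.9 and 16 after vehicle (2.89, SE 0.85, quantile 2.47), and all of its 6 probe sets lay above 0. The others of these had smaller changes, 0.09 to 1.38 (−0.22 to 0.97 after quantile normalization), with overlapping groups.

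For several others of the 12 the vehicle arrays spread widely. Taf1c, a subunit of the factor that places RNA polymerase I on ribosomal DNA, had 251.5, 209.7 and 154.9 after BPA against 73.9, 4.7 and 48.9 after vehicle (2.97, SE 0.89, quantile 2.59, or 1.74 without vehicle replicate 2). Oard1, an enzyme that removes acyl groups from ADP-ribose, had 122.6, 268.2 and 233.5 after BPA against 100.6, 25.7 and 18.3 after vehicle (2.45, SE 0.74, quantile 2.03). Vehicle replicate 1 came close to the BPA arrays in Oard1, as it did in Ptges3l, a relative of the co-chaperone gene Ptges3, with 135.4, 288.1 and 136.8 after BPA against 95.9, 9.3 and 2.8 after vehicle (3.69, SE 1.12, quantile 3.35). Without that array the change of Ptges3l was 5.10 and that of Oard1 3.19. Abcg3, of the ABC transporter family, had 198.5, 66.5 and 149.9 after BPA against 58.2, 4.4 and 6.4 after vehicle (3.41, SE 0.97, quantile 3.01). Gm4787, a predicted gene, had the largest change of the 12, 5.72 (SE 1.55), with 429.7, 100.7 and 157.8 after BPA against 66.2, 1 and 0.7 after vehicle. Vehicle signals near 1 make such a fold depend on the scale, and with 16 added to every value the log2 change of Gm4787 was 2.87. Ogfod2 (2.76), BC052688 (2.94) and Duoxa1 (3.15), the last a maturation factor of a dual oxidase, complete the set. Other probe sets of some of these genes differed, with changes of −0.68 for BC052688, −0.33 and 1.62 for Ptges3l and 0.14 for Abcg3.

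The 12 genes lower after BPA included brighter ones. Elovl1, an elongase of very long fatty acids, had signals of 639.2, 292.8 and 651.3 after BPA against 1864.6, 2222.4 and 2579.9 after vehicle (log2 change −2.15, SE 0.73, unadjusted p = 0.00945 in limma, −2.44 after quantile normalization). Apex1, the endonuclease of base excision repair, had 894.4, 1034.1 and 1541.9 after BPA against 3154.8, 4857.8 and 3600.9 after vehicle (−1.76, SE 0.73, quantile −1.93). Both were read by probe sets of the x_at kind, whose probes may bind related transcripts. The 3 Elovl1 probe sets below 0 are all of that kind, and its other one had a log2 change of 0.65. A probe set of Apex1 of another kind had 0.41, so both values are uncertain. Snrpb, a core protein of the spliceosome, had 919.2, 385.1 and 1326.1 after BPA against 1554.6, 3819.6 and 2769.1 after vehicle (−1.71, SE 0.75, quantile −1.92). Probe sets of that kind were 3 of the 12 lower genes and 1 of the 12 higher ones, against 4.24% of all genes.

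Among the others, Ier3 had 237.3, 115.5 and 119.7 after BPA against 491, 585.7 and 500.4 after vehicle (−1.82, SE 0.81, or −2.36 after quantile normalization), and its vehicle arrays were close to each other. Hes1, a repressor switched on by Notch, had 22.4, 22.8 and 46.5 after BPA against 64.1, 47.4 and 210.3 after vehicle (−1.58, SE 0.72, quantile −2.11). In Hes1 the groups nearly touched, at 46.5 and 47.4, and its change was −0.94 without vehicle replicate 3. Tgfa, a ligand of the EGF receptor, had 24.2, 28.5 and 45.1 after BPA against 131.7, 57.5 and 154.9 after vehicle (−1.75, SE 0.80, quantile −2.32), and 1 of its 3 probe sets lay below 0. Epor, the erythropoietin receptor, had 15.2, 8.9 and 13.3 after BPA against 49, 37.6 and 359.8 after vehicle (−2.84, SE 1.30, quantile −3.29, or −1.82 without vehicle replicate 3). The high array of Epor and of Hes1 is the one with the most epithelial signal, and the part of that signal was not tested.

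Ccnjl, a cyclin family gene, had the smallest p of the lower genes, with signals of 14.7, 39.2 and 31.3 after BPA against 136.4, 92.8 and 160.9 after vehicle (−2.27, SE 0.65, quantile −2.82, unadjusted p = 0.00282 in limma). Sinhcaf, a component of a SIN3 histone deacetylase complex, had 87.2, 137 and 106.2 after BPA against 404.9, 331.2 and 732.8 after vehicle (−2.09, SE 0.84, quantile −2.63). Fam118a had 31, 92.1 and 87.8 after BPA against 181.1, 203 and 269.9 after vehicle (−1.77, SE 0.68, quantile −2.32). At these probe sets the 3 genes had a clear gap between the groups, but that of Ccnjl is of the x_at kind and another Ccnjl probe set had a change of 1.27. Zscan10, a zinc finger factor of pluripotent cells, had a change of −3.14, with vehicle replicate 2 at 261.4 against 33.1 and 18.2 on the other vehicle arrays. The change of Zscan10 was −2.01 without that array and −2.34 without BPA replicate 2, where its signal was 2. Wfdc18, of the whey acidic protein family, had 1.6, 6.9 and 65.4 after BPA against 66, 187.6 and 79.8 after vehicle (−3.47, SE 1.18, quantile −4.09, or −2.23 without BPA replicate 1).

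**Figure D2:**
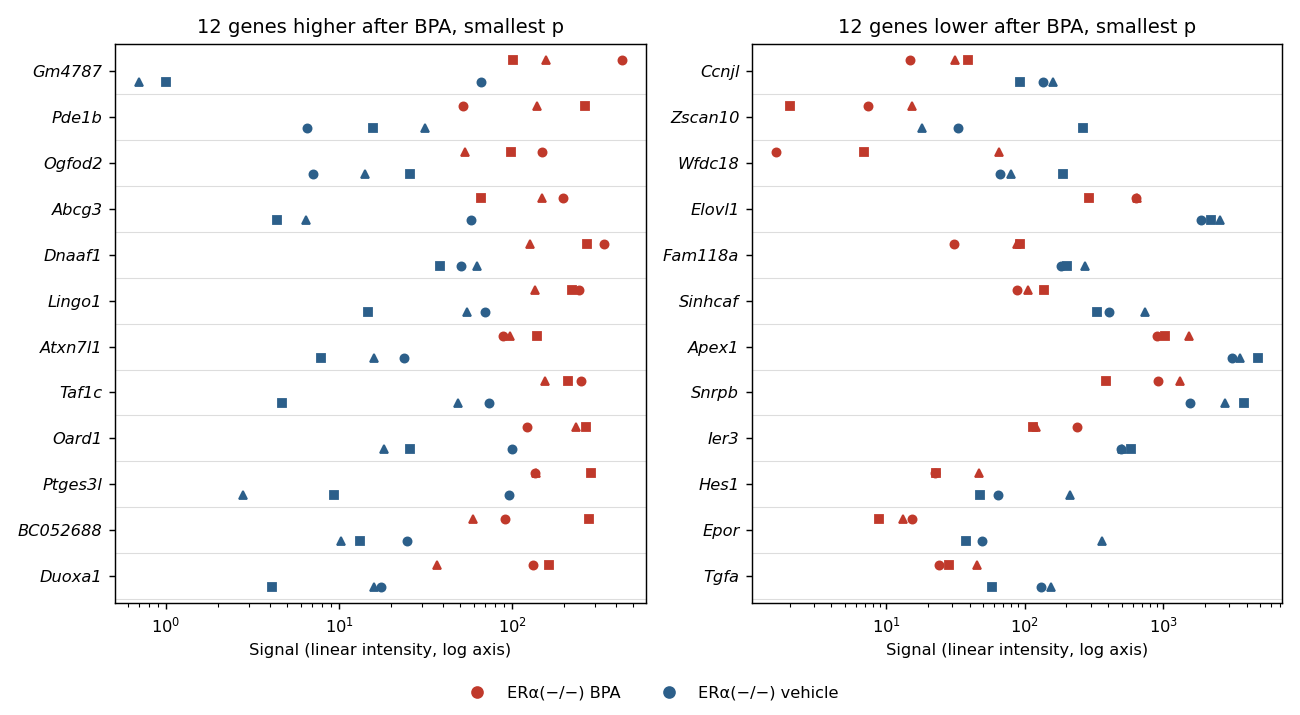
Signals (linear intensity, log axis) of the 12 genes higher and the 12 genes lower after BPA with the smallest p, on each ERα(−/−) stroma array, BPA and vehicle in their own colours and replicates 1, 2 and 3 as circles, squares and triangles. No BPA point overlaps the vehicle range in any row, which is how the genes were chosen, and in Hes1 the groups come as close as 46.5 and 47.4.

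Genes of mature fat cells were higher after BPA as a list. Of 18 measured adipocyte markers, 17 lay above 0 on the deposited scale and 17 after quantile normalization, with a median log2 change of 1.06 and 0.75, against 0.36 and −0.04 over all genes. At an unadjusted p under 0.05, 2 were higher (3% of all genes were) and none lower, and 6 were higher without overlap (9.3% of all genes), or 3 after quantile normalization (4.87% of all genes). None passed the adjusted test. Hcar1, 1 of these 2, and Fabp4 were named in the study with these same arrays among the samples. They are therefore not independent evidence. The summed signal of the list did not overlap either, at 62109.1, 56101.3 and 70015.8 after BPA against 48905.8, 55196.5 and 29668.6 after vehicle. In RNA from a captured area, fewer cells of a type and less RNA per cell cannot be told apart.

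Vehicle replicate 3 had the lowest of the 6 signals for 16 of the 18 adipocyte markers, against 28.6% of all genes. Without it the median of the list was 0.50, beside 0.29 over all probe sets, and no member had an unadjusted p under 0.05 in limma. Without vehicle replicate 2 the median was 1.59. The size of the adipocyte difference therefore rests to a large degree on vehicle replicate 3, the array with the highest epithelial sum and the lowest median signal, and their part in it was not tested.

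Hcar1, the lactate receptor that restrains lipolysis in adipocytes, had signals of 341.5, 166.8 and 266.4 after BPA against 78.3, 83.7 and 3.8 after vehicle (log2 change 3.08, SE 1.12, unadjusted p = 0.0137, adjusted p = 0.985 in limma). It was higher on every BPA array, by 2.64 after quantile normalization and by 1.61 without vehicle replicate 3. Plin4, a coat protein of lipid droplets, had 847.7, 471.8 and 809.6 after BPA against 199.7, 212.4 and 127.5 after vehicle (1.97, SE 0.89, unadjusted p = 0.0419), with no overlap and 1.62 after quantile normalization. Dgat2, which makes triglyceride, had 625, 626.1 and 550.7 after BPA against 279.7, 316.1 and 121.9 after vehicle (1.44, SE 0.79, quantile 1.05). Lep, the hormone leptin, had 421.3, 341 and 732.4 after BPA against 132.5, 230.9 and 27.7 after vehicle (2.32, SE 1.54, quantile 1.90) and no overlap.

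The brightest fat genes had smaller measured changes. Fabp4, a fatty acid carrier, had 13326, 13349 and 13712 after BPA against 11701, 13189 and 8386.8 after vehicle (0.30, SE 0.49, quantile 0.22), and Car3, the carbonic anhydrase abundant in fat and muscle, had 17279, 17293 and 17223 after BPA against 15752, 15475 and 12745 after vehicle (0.24, SE 0.48, quantile 0.15). The 3 other probe sets of Fabp4, all less bright, had changes of 0.72, 0.72 and 1.03. The hormone Adipoq had 4629.4, 3988.3 and 6735.2 after BPA against 4616, 5045.3 and 1866.8 after vehicle (0.51, SE 0.62, quantile 0.39), with overlapping groups. Slc2a4, the insulin-dependent glucose transporter, was the 1 marker below 0 (−0.58, SE 0.84, quantile −1.11).

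**Figure D3:**
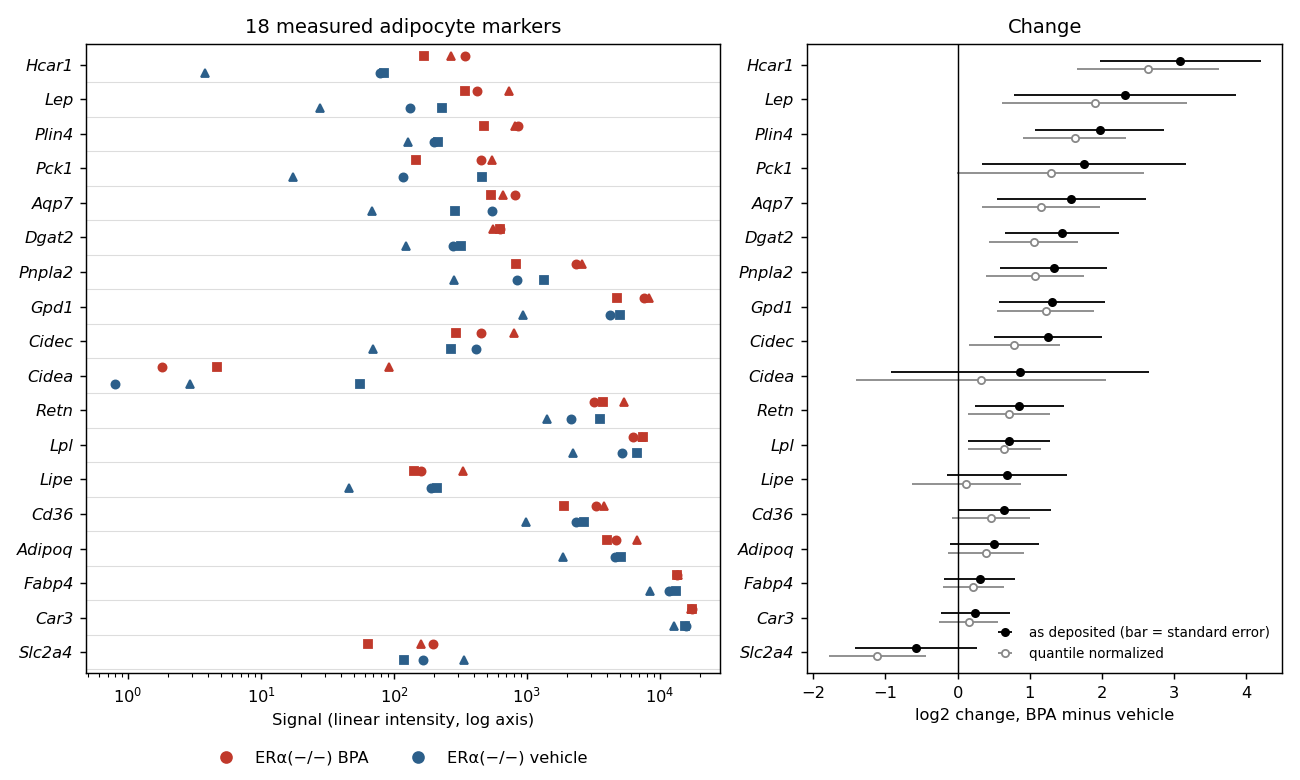
Signals (linear intensity, log axis) of the 18 measured adipocyte markers on each ERα(−/−) stroma array, BPA and vehicle in their own colours and replicates 1, 2 and 3 as circles, squares and triangles. The triangle of vehicle replicate 3 is the lowest point for 16 of the 18 genes, while the other vehicle arrays lie nearer to the BPA arrays.

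Regulators of fat cell formation and lipid handling were a second list, with 35 measured genes. The median log2 change was 0.67, or 0.35 after quantile normalization, with 31 genes above 0. At an unadjusted p under 0.05, 2 were higher and none lower, near the 3% of all genes, and after quantile normalization 1 was higher and 1 lower. Insr, the insulin receptor, had signals of 453.8, 191.4 and 233.3 after BPA against 152.1, 58.2 and 31.1 after vehicle (2.07, SE 0.81, quantile 1.56, unadjusted p = 0.0207 in limma), and all of its 3 probe sets lay above 0. Plin3, another lipid droplet protein, had 536.7, 40.2 and 123.4 after BPA against 78, 7.3 and 25 after vehicle (2.52, SE 1.12, quantile 2.04), where the groups overlapped. Nr1h3, the oxysterol receptor LXRα, had 175.1, 459.7 and 257.4 after BPA against 119.4, 99.4 and 96.9 after vehicle (1.39, SE 0.82, quantile 0.95), and its vehicle arrays were tightly grouped. Pparg, the master regulator of adipocytes, had 1050.9, 924 and 2136.6 after BPA against 891, 941.5 and 507.7 after vehicle (0.76, SE 0.73, quantile 0.49), with overlap. In the opposite direction, Ebf1, a factor of adipocyte and B cell commitment, had 653.7, 753.6 and 1102.9 after BPA against 1280.1, 3554.2 and 1337.5 after vehicle (−1.16, SE 0.60, quantile −1.38), but only 1 of its 5 probe sets lay below 0.

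Genes of oxidative phosphorylation, the mitochondrial chain that makes ATP, lay above 0 in 38 of 41 cases, with a median log2 change of 0.53, or 0.34 after quantile normalization. None had an unadjusted p under 0.05, and 9 (8 after quantile normalization) were higher without overlap, beside 9.3% of all genes (4.87% after quantile normalization). Ndufs1, a subunit of complex I, had signals of 740.4, 423.3 and 813 after BPA against 343.8, 340.3 and 104.3 after vehicle (1.46, SE 0.86, quantile 1.06), and Cox4i1, a subunit of complex IV, had 5258.1, 4572 and 6146 after BPA against 3355.3, 3311.5 and 1735.8 after vehicle (0.98, SE 0.63, quantile 0.86). As with the adipocyte markers, most genes were lowest on vehicle replicate 3, 34 of the 41 against 28.6% of all genes. On BPA replicate 3, 31 of the 41 were highest, against 22% of all genes. Without vehicle replicate 3 the median of the list was 0.22, beside 0.29 over all probe sets.

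Endothelial genes had a median log2 change of 0.56, or 0.12 after quantile normalization, and 18 of 22 lay above 0. At an unadjusted p under 0.05, 2 were higher, Esam and Tie1, beside 3% of all genes. Esam, an adhesion molecule of endothelial junctions, had signals of 531.9, 918.5 and 804.6 after BPA against 371.5, 92.6 and 110 after vehicle (2.23, SE 0.82, quantile 1.85, unadjusted p = 0.0145 in limma), without overlap. Tie1, an orphan receptor of vessels, had 48.9, 303.8 and 146.8 after BPA against 69.6, 6.1 and 33.7 after vehicle (2.42, SE 1.03, quantile 2.04), with overlap, and 1.42 without vehicle replicate 2. Here vehicle replicate 2 was lowest for 12 of the 22 genes, and the median without it was 0.36. Among 14 smooth muscle and pericyte markers (median 0.53, 0.14 after quantile normalization), Cspg4, the NG2 proteoglycan of pericytes, had 637.2, 436 and 542 after BPA against 273.6, 94.5 and 43.4 after vehicle (2.36, SE 0.96, quantile 1.93), although its other probe set lay below 0.

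Leukocyte markers showed no common direction after quantile normalization (median 0.33 deposited and 0.07 quantile normalized over 22 genes, with 15 and 12 above 0). Cd163, the haemoglobin scavenger receptor of tissue macrophages, had signals of 562.7, 1328.2 and 809.2 after BPA against 314.3, 224.5 and 106.5 after vehicle (2.11, SE 0.92, quantile 1.74, unadjusted p = 0.0357 in limma). Aif1, a calcium-binding protein of macrophages, had 306.5, 471.8 and 246.7 after BPA against 225, 1.2 and 2.2 after vehicle (5.29, SE 1.85, quantile 5.06). Its size rests on 2 vehicle arrays near the floor, since vehicle replicate 1 was close to the BPA arrays. Cd53, a pan-leukocyte tetraspanin, was at 1170.2, 1542.2 and 1513.5 after BPA against 1818.8, 1999.2 and 2467.1 after vehicle (−0.57, SE 0.60, quantile −0.77), in the other direction without overlap. Interferon response genes had a median of 0.74, or 0.25 after quantile normalization, with 20 of 22 above 0 and 2 at an unadjusted p under 0.05, the interferon regulatory factor Irf7 (2.60, SE 1.09, quantile 2.17) and the immunoproteasome subunit Psmb9 (2.34, SE 1.04, quantile 1.81), against 3% of all genes. After quantile normalization no interferon gene had an unadjusted p under 0.05 or separated the groups, and Psmb9 was 1.11 without vehicle replicate 3.

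Genes of the extracellular matrix, the protein scaffold that the stroma lays down around the ducts, stayed near the median of all genes. The median log2 change of 48 genes was 0.40, or 0.18 after quantile normalization, with 43 above 0 (67.7% of all genes were), and 3 higher and 1 lower at an unadjusted p under 0.05 (3% and 0.945% of all genes). Timp2, an inhibitor of matrix metalloproteinases, had signals of 840.1, 1104.5 and 1003.9 after BPA against 690.1, 51.4 and 346.4 after vehicle (2.08, SE 0.89, quantile 1.80), and 5 of its 6 probe sets lay above 0. Lamc1, a laminin chain of basement membranes, had 1882.3, 1382.8 and 1733.7 after BPA against 1355, 275.4 and 635.7 after vehicle (1.42, SE 0.62, quantile 1.16), and Hspg2, the basement membrane proteoglycan perlecan, had 1633.7, 264.2 and 795.3 after BPA against 208.9, 33 and 256.7 after vehicle (2.53, SE 1.04, quantile 2.27). In all 3 genes vehicle replicate 2 was the lowest array, and without it their changes were 1.00, 0.83 and 1.60. Mmp7, a metalloproteinase of epithelia, was lower, at 2, 3.6 and 5.6 after BPA against 22.2, 15.7 and 12.9 after vehicle (−2.27, SE 0.64, quantile −2.67, unadjusted p = 0.0028 in limma), all of them dim signals. The 24 fibroblast markers had a median of 0.26, or 0.10 after quantile normalization, and none had an unadjusted p under 0.05.

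Focal adhesion genes, which link matrix to the cytoskeleton, had a median of 0.39 (0.15 after quantile normalization), with 28 of 40 above 0 (67.7% of all genes were). At an unadjusted p under 0.05, 1 was higher, the filamin Flnc (3.21, SE 1.50, quantile 2.91), and 1 lower, the integrin Itgb8 (−2.37, SE 1.11, quantile −2.70). The shares over all genes were 3% and 0.945%. Flnc had signals of 1521.5, 502.8 and 317 after BPA against 972.1, 3.3 and 95.7 after vehicle, with a change of 2.56 without BPA replicate 1, the array with muscle signal, and of 1.03 without vehicle replicate 2. Growth factor and Wnt genes of fetal mammary stroma had 40 of 54 above 0 (67.7% of all genes were) and a median of 0.50 (0.16 after quantile normalization). Fgf2, a fibroblast growth factor, had signals of 98.3, 229.5 and 397.2 after BPA against 205.1, 25.3 and 9.8 after vehicle (2.49, SE 1.15, quantile 2.10), with overlap, and Axin2, a target and brake of Wnt signalling, had 85.1, 259.6 and 256.5 after BPA against 107.4, 27.9 and 17 after vehicle (2.27, SE 1.18, quantile 1.84). Vehicle replicate 1 sat among the BPA arrays in both genes.

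Estrogen-responsive genes, which ERα switches on in other tissues, had a median of 0.47 (0.13 after quantile normalization). On the deposited scale 25 of 30 lay above 0 (67.7% of all genes did), and after quantile normalization 17 of 30 (48.3% of all genes). At an unadjusted p under 0.05, 2 were higher, beside 3% of all genes. Tff1, a trefoil peptide known as an estrogen target in human breast cancer cells, had signals of 58.4, 90.6 and 58.6 after BPA against 9, 33 and 4 after vehicle (2.68, SE 1.01, quantile 2.21, unadjusted p = 0.0169 in limma), and Cited1, a transcriptional co-activator, had 193.2, 25.2 and 83.9 after BPA against 3.9, 2.4 and 0.6 after vehicle (5.38, SE 2.23, quantile 5.05). Both separated without overlap as deposited, at dim signals. Of the 30 genes, 3 were higher without overlap as deposited (9.3% of all genes). After quantile normalization 1 was (4.87% of all genes). Pgr, the progesterone receptor, had 6.3, 93.5 and 13.6 after BPA against 37.4, 22 and 36.3 after vehicle (−0.63, SE 1.43, quantile −1.05). Of 28 apoptosis genes (median 0.42, −0.06 after quantile normalization), 2 were higher at an unadjusted p under 0.05 (1 after quantile normalization), beside 3% of all genes. These 2 act in opposite ways. Birc3, an inhibitor of apoptosis, had 514.6, 252.1 and 278.4 after BPA against 157.6, 54.4 and 50.6 after vehicle (2.13, SE 0.86, quantile 1.67), and the death receptor Tnfrsf10b had 31.8, 97.3 and 65.8 after BPA against 50.6, 3.5 and 1.3 after vehicle (3.26, SE 1.51, quantile 2.91), with overlap. Of 33 proliferation genes (0.22 and −0.11), the kinetochore gene Cenpf had 569.6, 715 and 453.7 after BPA against 319, 247.6 and 45.5 after vehicle (1.89, SE 0.84, quantile 1.45). At an unadjusted p under 0.05, 1 of the 33 was higher, beside 3% of all genes.

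Immediate early and stress genes lay near the median of all genes (0.28 deposited, −0.06 after quantile normalization). Of the 34, 24 lay above 0 as deposited and 15 after quantile normalization. Ier3 and the heat shock gene Hspa1b were lower at an unadjusted p under 0.05, beside 0.945% of all genes. Hspa1b had signals of 6, 55.5 and 63.5 after BPA against 32.7, 230.8 and 501.5 after vehicle (−2.49, SE 1.02, quantile −2.99), with overlap, and is nearly identical in sequence to Hspa1a, so its probes may read both. Jun, a subunit of the AP-1 factor, had 700, 823.5 and 573 after BPA against 485.2, 191.3 and 157.5 after vehicle (1.50, SE 0.93, quantile 1.12), in the other direction. Cholesterol synthesis genes had 17 of 19 above 0 (13 after quantile normalization) and a median of 0.68 (0.23 after quantile normalization), none with an unadjusted p under 0.05. Sc5d, a late enzyme of the pathway, had 306, 208.7 and 301.5 after BPA against 110.5, 39.2 and 102.3 after vehicle (1.81, SE 1.03, quantile 1.39). Splicing factor genes (median 0.34, 0.04 after quantile normalization, 36 genes) and ribosomal protein genes (0.16 and 0.05, 26 genes) stayed close to the median of all genes.

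The remaining cell type lists gave 1 member with an unadjusted p under 0.05, beside 3% of all genes higher and 0.945% lower. Schwann cell markers had a median of 0.61 (0.11 after quantile normalization), with 8 of 11 above 0 as deposited and 6 after quantile normalization. Mast cell markers had a median of 0.31 (0.01 after quantile normalization), with 11 of 11 above 0 as deposited and 6 after quantile normalization. Of all genes, 67.7% lay above 0 as deposited and 48.3% after quantile normalization. Markers of erythroid cells (−0.07 and −0.50, 12 genes), of epithelium (−0.10 and −0.63, 27 genes) and of keratinised epidermis (−0.28 and −0.82, 16 genes) had medians below 0 on both scales. None of these directions was firm, since epithelium was at 0.39 without vehicle replicate 3, keratinised epidermis at 0.14 without vehicle replicate 1 and erythroid cells at 0.22 without BPA replicate 1. The member at that p was the epidermal gene Dsc1, a desmosomal cadherin, at 11.6, 10.7 and 15.6 after BPA against 2.7, 3.7 and 0.9 after vehicle.

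**Figure D4:**
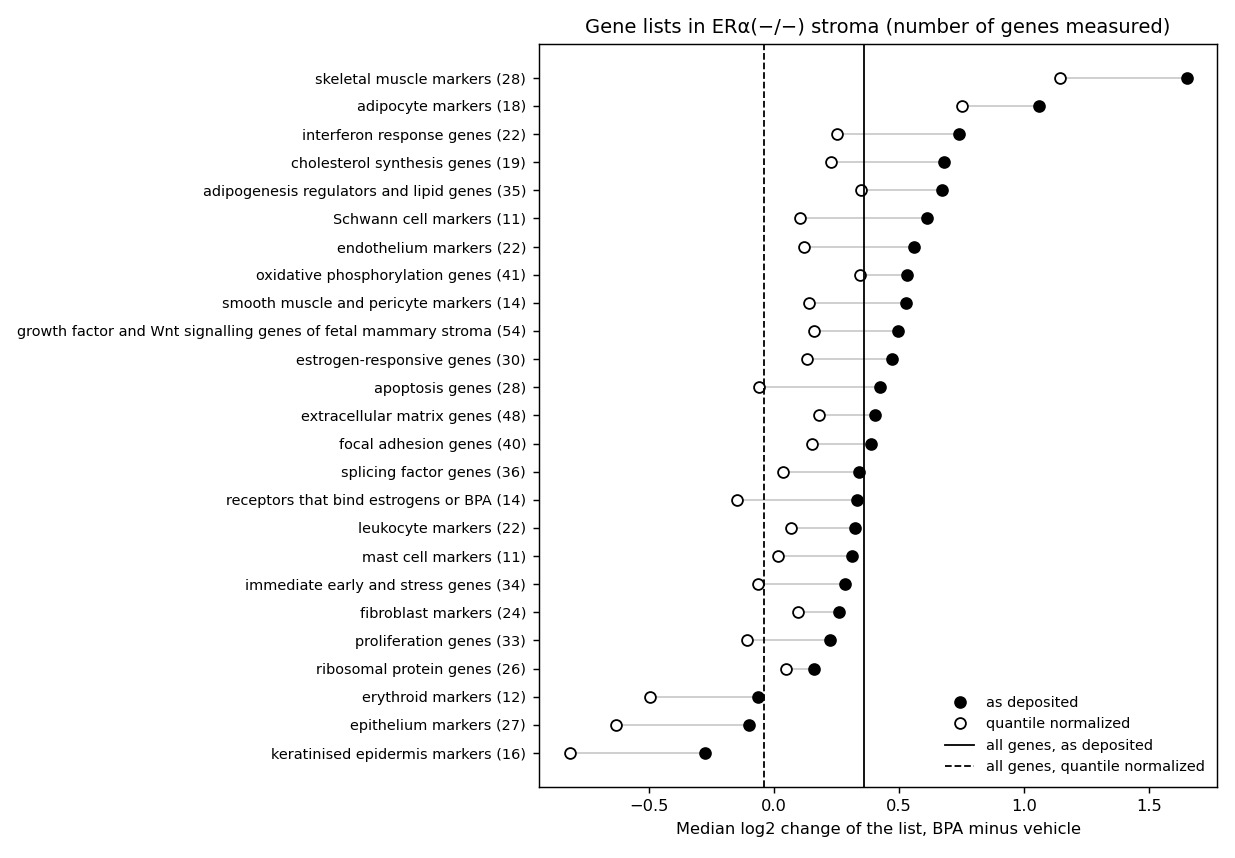
Median log2 change (BPA minus vehicle, ERα(−/−) stroma, 3 arrays each) of the 25 gene lists on the deposited scale and after quantile normalization, with vertical lines at the median of all genes on each scale, 0.36 and −0.04. Skeletal muscle and adipocyte markers have the highest medians on both scales, 1.65 and 1.06 as deposited, and the muscle value rests on BPA replicate 1.

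Read at their brightest probe sets, none of the 14 measured receptors that bind estrogens or BPA separated the groups. Esr2, which encodes ERβ, had signals of 8.2, 14.2 and 10.5 after BPA against 14.8, 50 and 2.6 after vehicle (log2 change −0.22, SE 1.10, quantile −0.71), and Gper1, the membrane estrogen receptor, had 39.9, 89.2 and 66 after BPA against 66.5, 68.2 and 127.8 after vehicle (−0.43, SE 0.98, quantile −0.97). Both are dim, and their groups overlapped. In ERα(+/+) stroma this Gper1 probe set had 192.9, 150.2 and 31 after BPA against 162, 1206.9 and 598.8 after vehicle. Esrrg, the estrogen-related receptor known for binding BPA, had 24.5, 13 and 64.3 after BPA against 24.4, 7.2 and 17.9 after vehicle (0.90, SE 0.81, quantile 0.39), and Esrra had 284.3, 157.7 and 305.8 after BPA against 204, 115.2 and 159.4 after vehicle (0.62, SE 0.85, quantile 0.14). The bright members were the glucocorticoid receptor Nr3c1, with 582.3, 606.3 and 897.5 after BPA against 314.9, 644.1 and 161.6 after vehicle (1.09, SE 0.85, quantile 0.73), and the thyroid hormone receptor Thra, with 731, 598.1 and 648.4 after BPA against 523.2, 979.3 and 658 after vehicle (−0.08, SE 0.57, quantile −0.36). Other probe sets of these genes differed from the brightest. One of Nr3c1 had 599.6, 58.2 and 163.7 after BPA against 39.5, 0.8 and 2.4 after vehicle (5.40, SE 1.50, quantile 5.10), another of Nr3c1 was lower without overlap (−1.18, SE 0.78, quantile −1.70), and one of Thra had 86.2, 127.3 and 171.6 after BPA against 66.7, 2.7 and 26.8 after vehicle (2.87, SE 1.04, quantile 2.46). The probe sets of a gene thus gave opposite directions. The median over the 14 was 0.33, or −0.15 after quantile normalization.

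The study named genes for their response in the stroma, and these were read in ERα(−/−) stroma at the probe sets it used. Tnc, Vcan, Col5a3 and Ccnd1 were chosen there on ERα(+/+) stroma. Tnc, the matrix protein tenascin C, had signals of 619.1, 1850.7 and 1649.3 after BPA against 1688.5, 521.6 and 1864.6 after vehicle (log2 change 0.07, SE 0.63, quantile −0.21), so high and low arrays occurred in both groups. Vcan, the proteoglycan versican, had 827.7, 722.6 and 670.1 after BPA against 926.1, 557.8 and 834.7 after vehicle (−0.04, SE 0.66, quantile −0.35). The cyclin Ccnd1 had 578.2, 1250.7 and 657.2 after BPA against 601.2, 269.1 and 1478.5 after vehicle (0.33, SE 0.68, quantile 0.02), and the collagen Col5a3 had 1431.9, 524.6 and 443.3 after BPA against 678.3, 452.4 and 333.2 after vehicle (0.57, SE 0.67, quantile 0.21). All 4 overlapped between the groups as deposited, while after quantile normalization the BPA arrays of Vcan lay below its vehicle arrays (−0.35). Pparg, Fabp4 and Hcar1 were chosen in the study with these same arrays among the samples, so their direction here is not independent evidence. The Fabp4 probe set used there had 772.2, 770.7 and 2068.8 after BPA against 367.8, 1113 and 352.6 after vehicle (1.03, SE 0.72, quantile 0.78).

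The next comparison asked whether the difference after BPA was itself different between the genotypes, as the change in ERα(−/−) stroma minus that in ERα(+/+) stroma. No probe set passed (smallest adjusted p = 1 in limma). At an unadjusted p under 0.05, 1271 probe sets (2.82%) had a higher change in ERα(−/−) stroma and 387 (0.858%) a lower one, and after quantile normalization 867 (1.92%) and 966 (2.14%). The median of all probe sets was 0.45 for this difference and −0.07 for BPA minus vehicle in ERα(+/+) stroma, so the surplus again followed the deposited scale. The adipocyte markers had a median change of 1.06 in ERα(−/−) stroma and 0.38 in ERα(+/+) stroma, or 0.75 and 0.56 after quantile normalization, with a median difference of 0.42 beside 0.44 over all genes. Single members were Hcar1, with a change of 3.08 in ERα(−/−) and 2.66 in ERα(+/+) stroma (difference 0.42, SE 1.58, unadjusted p = 0.793 in limma), and Plin4, with 1.97 and 0.95. The study chose Hcar1 on the arrays of both genotypes pooled, so its rise in both is not independent evidence.

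Trim29, a member of the tripartite motif family that the study chose for a change in ERα(+/+) stroma without one in ERα(−/−) stroma, had signals of 32.6, 61.5 and 40.1 after BPA against 29.2, 15.8 and 37.1 after vehicle in ERα(−/−) stroma. In ERα(+/+) stroma it had 39.6, 24.1 and 20.3 after BPA against 67.8, 150.3 and 118.1 after vehicle. The difference of the changes was 2.73 (unadjusted p = 0.00362, adjusted p = 1 in limma), and only the ERα(+/+) groups did not overlap. Tnc, Vcan, Col5a3 and Ccnd1 had differences between the genotypes of 1.19, 1.48, 1.59 and 1.40, with unadjusted p from 0.109 to 0.2 in limma. The median over all genes was 0.44. After quantile normalization their differences were 0.64, 0.81, 0.96 and 0.79. The study chose them, like Trim29, for a fall on these same ERα(+/+) arrays. That choice by itself pushes the difference above 0.

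The genes with the smallest p for a difference between the genotypes, 6 in each direction, all had changes of opposite sign in the genotypes. They were picked as extremes of that difference, a choice that favours opposite signs, so the signs are no further evidence. Tnrc6a, a scaffold of microRNA silencing, had signals of 2009.3, 1160.2 and 1176.1 after BPA against 869.2, 92.2 and 371.5 after vehicle in ERα(−/−) stroma, and in ERα(+/+) stroma 763.4, 191.8 and 258.7 after BPA against 790, 2458.3 and 1976.1 after vehicle (difference 4.40, unadjusted p = 0.00186 in limma). It lay above the vehicle arrays in one genotype and below them in the other, and 4 of its 9 probe sets had the same sign of change in ERα(−/−) stroma. Ptges3l had a change of 3.69 in ERα(−/−) and −2.41 in ERα(+/+) stroma (difference 6.09). Sema4d, a semaphorin (4.60), Lrrn1 (6.67) and 5430400D12Rik (8.42) were of the same kind at dim signals. The other probe sets of Sema4d had differences of −2.29 and −0.62, and those of Lrrn1 −1.67 and 0.14.

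In the opposite direction, Mrpl10, a mitochondrial ribosomal protein, had signals of 580.8, 269.3 and 171.8 after BPA against 376.3, 626.5 and 564.9 after vehicle in ERα(−/−) stroma, and in ERα(+/+) stroma 486.6, 297.2 and 1414 after BPA against 154.3, 30.7 and 160.5 after vehicle (difference −3.46, unadjusted p = 0.00582 in limma). The groups overlapped in ERα(−/−) and did not in ERα(+/+) stroma. Fbxo32, a ubiquitin ligase of muscle wasting, had 9.9, 9.4 and 27.6 after BPA against 19.6, 401.4 and 334.2 after vehicle in ERα(−/−) stroma (difference −3.68), where BPA replicate 1, the array with muscle signal, had one of the low values. The other probe sets of Fbxo32 had differences of 1.52 and −0.48. Elovl1 (−2.56, and 2.36 at its probe set of another kind), Ift43 (−3.11), Stac2 (−3.89) and Bcl3 (−2.80), an IκB family protein, complete this set.

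**Figure D5:**
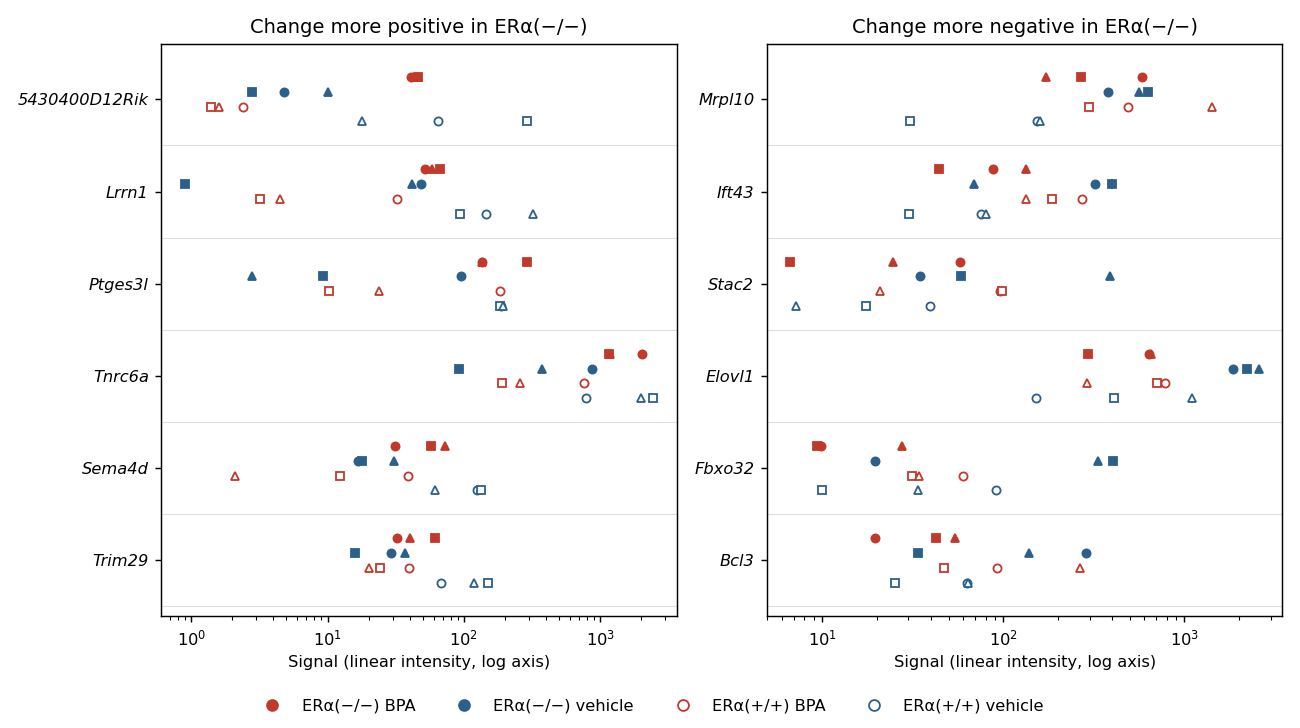
Signals (linear intensity, log axis) of the 12 genes with the smallest p for a difference of the BPA effect between the genotypes, with ERα(−/−) BPA and vehicle arrays (filled) above ERα(+/+) BPA and vehicle arrays (open) in each row and replicates 1, 2 and 3 as circles, squares and triangles. In Trim29 the ERα(+/+) groups are apart while the ERα(−/−) groups overlap, and in Tnrc6a the groups are ordered oppositely in the genotypes.

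BPA was last set against EE2 within ERα(−/−) stroma, without the vehicle arrays. BPA is a phenol with no steroid skeleton and EE2 a steroid, and their doses of 250 and 10 ng per kg per day differed, so the comparison is between those exposures as given. No probe set passed (smallest adjusted p = 0.96 in limma). At an unadjusted p under 0.05, 1646 probe sets (3.65%) were higher after BPA against 209 (0.463%) lower, and after quantile normalization 767 (1.7%) and 728 (1.61%). The median signal of the EE2 arrays, 30.5, 24.5 and 24.5, lay below all of the BPA arrays, and their Gapdh ratio was 15.4, 16.2 and 20.8, above all of them. EE2 replicate 3 held muscle signal as BPA replicate 1 did, with a sum of 46366.0. Of the ERα(+/+) EE2 arrays, which entered only the shared fit, replicate 2 had a sum of 45317.9.

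Ccdc91, a protein of Golgi transport, had the smallest p, with signals of 354.8, 219.6 and 205.9 after BPA against 32.2, 19.8 and 13.5 after EE2 (log2 change 3.62, unadjusted p = 0.000146 in limma). Its vehicle arrays had 49.6, 43.3 and 319.7, so replicate 3 lay with the BPA arrays. Zfp142, a zinc finger gene, had 209.2, 151.9 and 158.4 after BPA against 51.6, 29.1 and 20.8 after EE2 (2.44), with vehicle arrays at 90.1, 83.3 and 43.4. Slc22a4, a transporter of organic cations and ergothioneine (4.27), Nfam1 (3.10) and Zfp524 (2.62) were also higher after BPA without overlap, as were 11.9% of all genes. Eloa, a subunit of the elongin complex (2.91), had overlapping groups.

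Against EE2, fewer probe sets were lower than higher after BPA on the deposited scale (209 and 1646), while after quantile normalization the counts were close (728 and 767). C030006K11Rik had signals of 6.4, 37 and 60.8 after BPA against 308.2, 237.6 and 261 after EE2 (−3.46, unadjusted p = 0.0227 in limma), and Mtbp, which binds Mdm2, had 25.4, 9.7 and 91 after BPA against 119.2, 152.5 and 92 after EE2 (−2.07). In Mtbp the highest BPA array and the lowest EE2 array were almost equal. Saa3, an acute phase protein, had 21.7, 91.7 and 59.2 after BPA against 192.4, 199.3 and 68.7 after EE2 (−1.49), with overlap, while Troap (−3.10), Pdgfrl (−2.18) and Fam104a (−2.34) completed the set. Of the fat genes, Hcar1 had 341.5, 166.8 and 266.4 after BPA against 91.4, 72.4 and 23 after EE2 (2.21, unadjusted p = 0.0646).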

How the data were processed

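RNA of laser-captured stroma was measured on Affymetrix mouse arrays, 1 per gland. The authors deposited linear intensity values for 45101 probe sets, which the labels give as GCOS output. The methods name RMA in Partek and a log transform, but the deposited intensities are not logs, and their scaling is not stated in the sources used here. Depth has no counterpart on arrays, and their number limits the precision.

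Intensities were raised to at least 0.1, taken to log2 and fitted with limma 3.58.1 (R 4.3.3) over all 18 stroma arrays in 6 groups, and p-values were adjusted by Benjamini-Hochberg across the whole array. The fit was tested on simulated data. Genes were read at their brightest probe set among the 34958 with 1 symbol (18194 genes). Named genes are the 12 in each direction with the smallest p, a mean signal of at least 100 in the higher group and no overlap on both scales, the study's stroma genes, receptors, list members with the smallest p, and the 6 in each direction for the other comparisons. Of 720 list entries, 665 were matched. The members and lists were chosen with earlier results of these data known. Some genes of the study are not reported here. Arrays were not paired in the main fit. Alternatives were quantile normalization, median centring, 16 added, a signal filter, array weights, trended variance, the replicate block, the groups fitted, the methods' t-test and each array left out.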

Additional observations from a re-analysis of the deposited data

How the results depend on the processing

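No probe set had an adjusted p under 0.05 under any alternative. The smallest adjusted p over the alternatives was 0.269 for BPA minus vehicle (16 added), 0.28 for the difference between genotypes (without ERα(+/+) BPA replicate 1) and 0.141 for BPA minus EE2 (array weights). What the signal over background allows is limited by the many dim probe sets, since 19784 of 45101 had a mean signal of at least 50.

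Counts at an unadjusted p under 0.05 moved as follows, and the causes were not tested beyond the fewer probe sets or arrays of some settings. For BPA minus vehicle (1628 higher, 463 lower), quantile normalization gave 1145 lower, median centring 834 and 1243, the signal filter 885 and 42, and the methods' t-test 263 lower. With 1 array left out the counts were 1081 to 3157 higher and 351 to 680 lower, and the difference of log2 array medians was 0.36 to 0.78. For the difference between genotypes (1271 and 387), quantile normalization gave 966 lower, centring 736 and 938, the filter 650 and 53, and array weights 2616 and 593. With 1 array left out these were 768 to 2578 and 301 to 676, the ends being without ERα(+/+) BPA replicates 3 and 1 for higher changes. For BPA minus EE2 (1646 and 209), quantile normalization gave 767 and 728, centring 699 and 800, the filter 377 and 21, the groups compared alone 2682 and 340, and array weights 2927 and 444. With 1 array left out these were 1098 to 1928 and 186 to 374, the last without BPA replicate 2.

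The replicate numbers are shared by the groups. Deviations of same-numbered BPA and vehicle arrays of ERα(−/−) stroma, which come from different dams, had r = 0.00071, 0.073 and −0.0046 for replicates 1 to 3. ERα(−/−) and ERα(+/+) arrays of the same exposure may share a litter. Their same-numbered pairs had r = −0.0021, −0.0065 and −0.10 after BPA and 0.089, 0.048 and 0.025 after vehicle. Pairs of unlike number reached 0.12. The comparison of the genotypes did not pair litter mates. With the replicate number as a block, 1883 probe sets were higher and 473 lower for BPA minus vehicle, and it changed no call.

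Of the 32 genes named for BPA minus vehicle, 29 kept their direction under the 13 or 14 alternatives that gave them a value. Tnc (0.07) was −0.21 after quantile normalization, −0.45 after centring and −0.52 to 0.57 with 1 array left out. Ccnd1 (0.33) was −0.19 after centring and −0.27 to 0.96 with 1 array left out. Vcan (−0.04) was −0.35 after quantile normalization, −0.25 to 0.11 with 1 array left out and −0.56 to 0.11 over all alternatives. All 12 genes of each other comparison kept theirs, under 19 or 20 alternatives for the genotypes and 13 or 14 for BPA minus EE2. These genes were chosen for the smallest p, which favours a kept direction.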
